A study of Drosophila melanogaster with 35 samples.

Results

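The 6 developmental regulator genes ci, pan, zfh2, ey, toy and Sox102F lie on chromosome 4 of Drosophila melanogaster, and their replication timing (RT) was described through the 100-kb windows that overlap them. Windows were placed at a 10-kb slide, and 62 of the 135 chromosome 4 windows overlapped at least 1 of the 6 genes, leaving 73 that held none, among 13391 windows of the 6 major scaffolds. RefSeq places 114 genes on chromosome 4, of which 80 code for protein, and all 6 members are among them. The measure of RT was read depth in S phase nuclei over that in G1 nuclei, on a log2 scale, and a larger value stands for earlier replication.

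The tissues were ovarian follicle cells of adult females and wing imaginal discs of female larvae in their last instar. Endocycling follicle cells came from Rif1[1]/Rif1[2] (Rif1-) and Oregon-R (wild type) ovaries. Mitotic follicle cells came from Rif1-, Rif1[PP1]/Rif1[1] (Rif1PP1), Rif1[2]/CyO (Rif1-/+, with the balancer chromosome CyO) and Oregon-R ovaries. Wing discs came from Rif1-, Rif1PP1 and Yellow-white (wild type) larvae. Rif1 is a replication timing factor that recruits Protein Phosphatase 1, and Rif1PP1 flies carry 1 allele with a mutated PP1-binding motif over a null allele. Nuclei were sorted by DNA content, so cells of different types within an ovary or a disc were not separated. Each of the 9 conditions has 1 deposited mean of 2 S phase samples. No value below therefore has an SD, an interval or a test, the read depth is unknown, and a difference between conditions has no replicate check. G1 nuclei of wing discs were the copy number control for follicle cells too. Which G1 library stands behind each ratio is not given in the sources used here. Of 3 wing disc samples titled G1, that of Rif1PP1 is described as S phase, so the control behind the Rif1PP1 wing disc ratios is uncertain. Wing disc and follicle cell libraries were made with different kits, read on different sequencers and came from different wild-type strains, so tissue, strain and library effects cannot be told apart. Follicle cell libraries were read on HiSeq X or NovaSeq instruments, so the sequencer may also differ among the follicle cell conditions.

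Chromosome 4, the dot chromosome, is small and mostly packaged as heterochromatin, yet it carries many active genes. Heterochromatin is usually copied late in S phase. The 6 genes encode transcription factors that pattern the embryo, the imaginal discs and the nervous system. ci (cubitus interruptus) is the transcriptional effector of Hedgehog signalling, and pan (pangolin) is the TCF factor through which Wingless signalling acts. ey (eyeless) and toy (twin of eyeless) are the Pax6 genes at the head of the retinal determination network. zfh2 encodes a zinc finger homeodomain protein needed in wing and leg development, and Sox102F encodes a Sox family factor of the nervous system.

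In the dm6 build, ci occupies chr4:47710-57041 on the minus strand and pan chr4:69326-114270 on the plus strand, 12.284 kb apart. All 6 windows of ci are also windows of pan, whose 12 windows run over chr4:1-210000, so both genes read nearly the same DNA and are not independent. zfh2 (chr4:501810-540874, plus) has 14 windows, ey (chr4:697689-721173, plus) has 13, Sox102F (chr4:800436-834393, minus) has 13 and toy (chr4:989725-1007922, plus) has 12. ey and Sox102F share 2 windows, and no other pair shares any. Windows cover introns, exons and intergenic DNA alike, and exons make up 60.6% of the length of ci, 32.1% of pan, 31.8% of zfh2, 15.8% of ey, 21.5% of toy and 12.8% of Sox102F. Neighbouring windows overlap by 90%, so a count of windows is not a count of independent regions.

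The 250 bases upstream of the annotated start are shown for the genes with the highest (ci, pan) and the lowest (ey, Sox102F) RT in wild-type mitotic follicle cells, taken from the RefSeq dm6 genome, 5′ to 3′ on the strand of the gene. Capitals mark matches on either strand to the TATA box TATAAA or to the GAGA factor motif GAGAG.
ci, chr4:57042-57291, minus: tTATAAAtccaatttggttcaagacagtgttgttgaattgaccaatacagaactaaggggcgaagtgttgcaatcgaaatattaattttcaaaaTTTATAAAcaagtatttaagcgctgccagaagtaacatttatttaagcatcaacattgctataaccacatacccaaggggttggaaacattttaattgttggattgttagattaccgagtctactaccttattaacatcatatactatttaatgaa
pan, chr4:69076-69325, plus: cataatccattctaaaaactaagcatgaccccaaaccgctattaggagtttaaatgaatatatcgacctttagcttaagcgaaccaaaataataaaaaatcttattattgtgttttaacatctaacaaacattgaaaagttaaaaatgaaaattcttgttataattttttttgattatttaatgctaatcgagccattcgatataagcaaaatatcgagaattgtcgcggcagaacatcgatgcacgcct
ey, chr4:697439-697688, plus: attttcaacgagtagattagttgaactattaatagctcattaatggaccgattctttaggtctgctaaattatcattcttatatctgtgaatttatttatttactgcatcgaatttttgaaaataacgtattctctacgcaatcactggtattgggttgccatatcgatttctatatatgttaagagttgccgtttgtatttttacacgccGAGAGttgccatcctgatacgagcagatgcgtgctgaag
Sox102F, chr4:834394-834643, minus: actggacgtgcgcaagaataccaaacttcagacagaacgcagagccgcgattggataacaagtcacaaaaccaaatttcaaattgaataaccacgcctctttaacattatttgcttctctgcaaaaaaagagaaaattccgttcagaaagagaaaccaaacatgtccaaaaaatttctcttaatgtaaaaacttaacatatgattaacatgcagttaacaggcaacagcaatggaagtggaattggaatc
The stretch of ci overlaps the antisense RNA gene asRNA:CR43957. It holds 3 matches to TATAAA, of which a pair overlaps on opposite strands in TTTATAAA, and 43.1% of the upstream stretches of all 13921 protein-coding genes hold at least 1. GAGAG occurs 5 times in zfh2 and 1 time each in ey and toy, and in 25.8% of all stretches. The DRE motif TATCGATA is in none of the 6, and in 8.01% of all stretches. GC content was 31.2% in ci, 30.0% in pan, 34.8% in ey and 36.4% in Sox102F, against 37.2% for the median gene, while zfh2 (47.6%) and toy (46.0%) were above it. RT was measured in windows of 100 kb and does not resolve stretches of 250 bases, so these matches are a description of the genes only.

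Levels below are the deposited log2 S/G1 ratio minus the median of the 11440 windows of arms 2L, 2R, 3L, 3R and X outside pericentric heterochromatin, averaged over the windows of a gene. A level of 0 is thus the RT of a typical euchromatic window in that condition. The median of a single arm lay between -0.06 and 0.06 of this point in all 9 conditions.

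Among the 6 genes, ci and pan had the highest RT in all 6 follicle cell conditions, whereas in wing discs all 6 genes lay close together. ci and pan lay above the arm median in each follicle cell condition but Rif1- endocycling cells, and the other 4 genes at 0.00 or below in each but Rif1-/+ mitotic cells, where they lay above it. ci was at -0.09 in Rif1- and 0.30 in wild-type endocycling follicle cells. In mitotic follicle cells ci was at 0.18 in Rif1-, 0.22 in Rif1PP1, 0.88 in Rif1-/+ and 0.33 in wild type. In wing discs ci was at 0.10 in Rif1-, 0.06 in Rif1PP1 and 0.06 in wild type. ci was the highest of the 6 genes in 8 conditions, the exception being Rif1PP1 wing discs, where zfh2 was. In wild-type mitotic follicle cells its level exceeded 99.1% of arm windows, and in Rif1-/+ 99.9%.

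pan had the next highest level in all 9 conditions. It was at -0.14 in Rif1- and 0.26 in wild-type endocycling follicle cells. In mitotic follicle cells pan was at 0.14 in Rif1-, 0.16 in Rif1PP1, 0.77 in Rif1-/+ and 0.28 in wild type. In wing discs it was at 0.08 in Rif1-, 0.09 in Rif1PP1 and 0.06 in wild type. The windows of pan spread more widely than those of ci. In wild-type mitotic follicle cells they ran from 0.19 to 0.35, against 0.30 to 0.35 for ci.

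The Pax6 genes ey and toy are separated by 268.551 kb and share no window. ey was at -0.29 in Rif1- and -0.05 in wild-type endocycling follicle cells, and at -0.10 in Rif1-, -0.09 in Rif1PP1, 0.11 in Rif1-/+ and -0.16 in wild-type mitotic follicle cells. It was the lowest of the 6 genes in wild-type mitotic follicle cells, above only 7.21% of arm windows. In wing discs ey was at 0.05 in Rif1-, 0.03 in Rif1PP1 and 0.01 in wild type. toy was at -0.32 in Rif1- and 0.00 in wild-type endocycling follicle cells, and at -0.07 in Rif1-, -0.01 in Rif1PP1, 0.22 in Rif1-/+ and -0.08 in wild-type mitotic follicle cells. In wing discs toy was at 0.06 in Rif1-, 0.06 in Rif1PP1 and -0.01 in wild type. toy lay above ey in all 4 mitotic follicle cell conditions. In wild type their windows did not overlap, at -0.12 to -0.01 for toy and -0.22 to -0.13 for ey, and in Rif1-, Rif1PP1 and Rif1-/+ they did.

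zfh2 was at -0.31 in Rif1- and -0.02 in wild-type endocycling follicle cells, and at -0.09 in Rif1-, -0.05 in Rif1PP1, 0.20 in Rif1-/+ and -0.10 in wild-type mitotic follicle cells. In wing discs it was at 0.08 in Rif1-, 0.09 in Rif1PP1 and 0.00 in wild type. Sox102F was at -0.29 in Rif1- and -0.06 in wild-type endocycling follicle cells, and at -0.08 in Rif1-, -0.05 in Rif1PP1, 0.09 in Rif1-/+ and -0.13 in wild-type mitotic follicle cells. In wing discs it was at -0.03 in Rif1-, 0.04 in Rif1PP1 and 0.00 in wild type. Sox102F had the widest spread over windows of these 4 genes in wild-type mitotic follicle cells, from -0.22 to 0.00. Apart from ey and toy, every pair of zfh2, ey, toy and Sox102F overlapped in the range of windows in that condition, so that their order is not separated beyond this range.

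**Figure D1:**
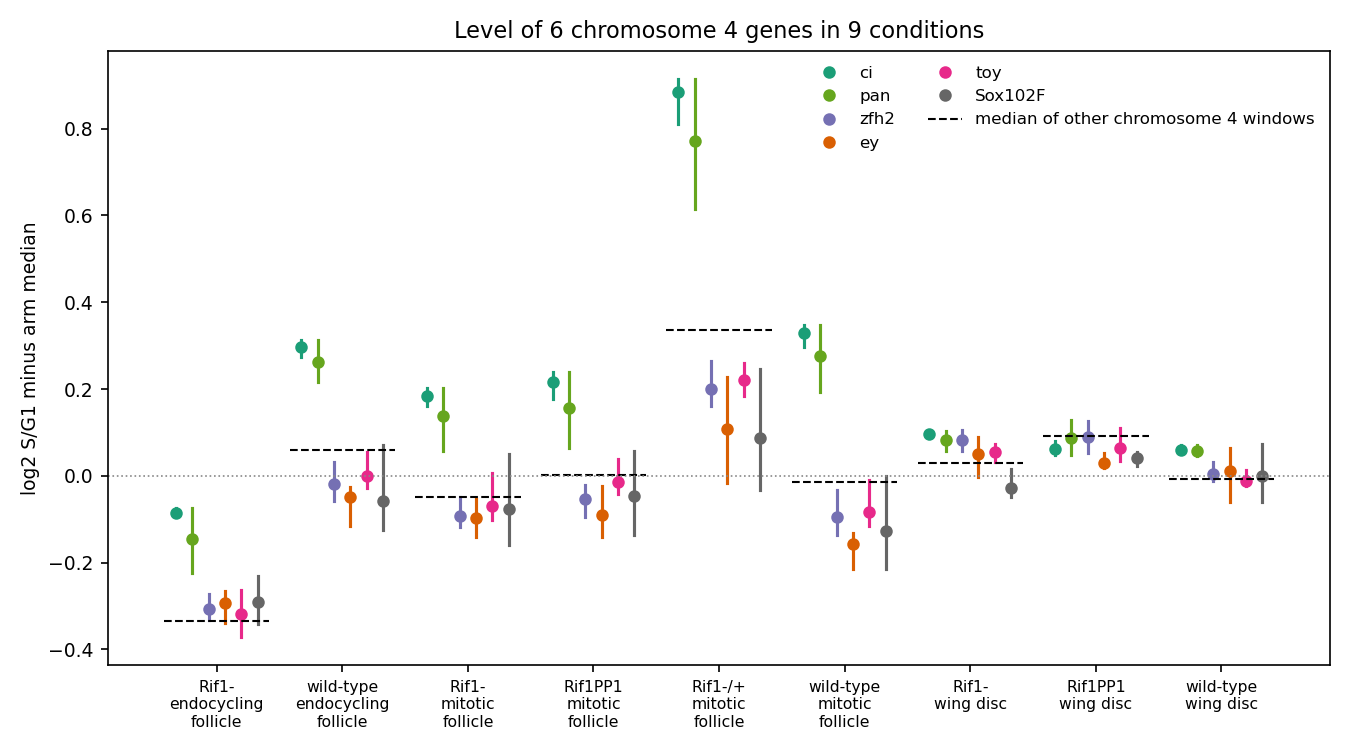
Level of each gene in 9 conditions: the vertical axis is log2 S/G1 minus the arm median, points are means over the windows of a gene, vertical lines run from its lowest to its highest window, and dashed lines are the median of the chromosome 4 windows without a member. In the 6 follicle cell conditions the points of ci and pan stand above the other 4 genes, and in the 3 wing disc conditions all lie between -0.03 and 0.10.

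The separation between ci and pan and the other genes held in every follicle cell condition. The 12 windows of ci and pan did not overlap the 50 windows of zfh2, ey, toy and Sox102F in any of the 6 follicle cell conditions. The difference of the means was 0.16 in Rif1- and 0.29 in wild-type endocycling cells, and 0.22 in Rif1-, 0.21 in Rif1PP1, 0.61 in Rif1-/+ and 0.39 in wild-type mitotic cells. In wing discs it was 0.04 in Rif1-, 0.03 in Rif1PP1 and 0.05 in wild type, and 23, 26 and 8 of the 50 other windows in these conditions lay above the lowest window of ci and pan. On this scale the gap in follicle cells was narrower in Rif1- and Rif1PP1 than in wild type and wider in Rif1-/+. The scaling decided this for Rif1-. After pairwise quantile normalization, which gives both conditions of a comparison the same distribution of values, the gap was 0.11 wider in Rif1- than in wild-type endocycling cells and 0.03 narrower in Rif1- than in wild-type mitotic cells, and after normalization of all 9 conditions together it was narrower by 0.01 in both. In Rif1PP1 it was narrower by 0.16 to 0.18 and in Rif1-/+ wider by 0.17 to 0.23 under these scalings.

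Along the chromosome, the early region of ci and pan formed a slope from the proximal end of the assembly. In Rif1- mitotic follicle cells the window chr4:1-100000 was at 0.19, chr4:100001-200000 at 0.08 and chr4:200001-300000, which holds no member, at -0.03. The same windows were at 0.91, 0.63 and 0.42 in Rif1-/+, and at 0.33, 0.21 and -0.01 in wild-type mitotic follicle cells. The lowest of these non-overlapping windows in wild-type mitotic follicle cells was chr4:700001-800000, which holds most of ey, at -0.16. In wild-type wing discs the 3 windows from the proximal end were at 0.05, 0.06 and -0.01, with no slope of that size.

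The 73 chromosome 4 windows without a member give the background. Their median was -0.34 in Rif1- and 0.06 in wild-type endocycling follicle cells, and -0.05 in Rif1-, 0.00 in Rif1PP1, 0.34 in Rif1-/+ and -0.02 in wild-type mitotic follicle cells (71 windows in Rif1PP1 and Rif1-/+). In wing discs it was 0.03 in Rif1-, 0.09 in Rif1PP1 and -0.01 in wild type. The 73 include 2 windows at the distal end that were deposited as exactly 0 wherever they were finite. Whether these are measured values is not known, and they are counted here. Counted as well are the windows near that end whose values rise to 2.88 in wild-type mitotic follicle cells (see Other observations). zfh2, ey, toy and Sox102F all lay below this background in 5 of the 6 follicle cell conditions, the exception being Rif1- endocycling cells, and in wild-type mitotic follicle cells all 73 of these windows were above the level of ey. ci lay above it in 8 conditions and below it in Rif1PP1 wing discs, where 50 of the 73 windows were higher. The low levels of all 6 genes in Rif1- endocycling cells and the high levels in Rif1-/+ mitotic cells were thus shared with the rest of chromosome 4.

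GC content was measured beside these levels because chromosome 4 is poor in GC. The 62 member windows had a median GC content of 35.7% (32.8 to 37.7%), against 42.6% (34.4 to 51.8%) for arm windows. All 62 lie within or below the GC content of the 229 arm windows poorest in GC (34.4 to 38.4%), and the 12 windows of ci and pan lie below every arm window. In Rif1- endocycling follicle cells the member windows had a median level of -0.29, close to the -0.27 of these 229 arm windows, and in wild-type endocycling cells they were at -0.02, against -0.01 for the arm windows. In mitotic follicle cells the median of the member windows was -0.08 in Rif1-, -0.03 in Rif1PP1, 0.19 in Rif1-/+ and -0.11 in wild type. That of the 229 arm windows was 0.00 in Rif1-, 0.12 in Rif1PP1, 0.12 in Rif1-/+ and -0.01 in wild type. The member median hides a split between the genes. In Rif1- endocycling cells the 12 windows of ci and pan had a mean of -0.14, above the upper quartile of these arm windows (-0.18). The other 50 member windows had a mean of -0.30. In wild-type endocycling cells these means were 0.26 and -0.03. Arm windows poor in GC therefore had a level as low as zfh2, ey, toy and Sox102F in Rif1- endocycling cells, but lower than ci and pan. The part of GC content in the levels was not tested.

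**Figure D2:**
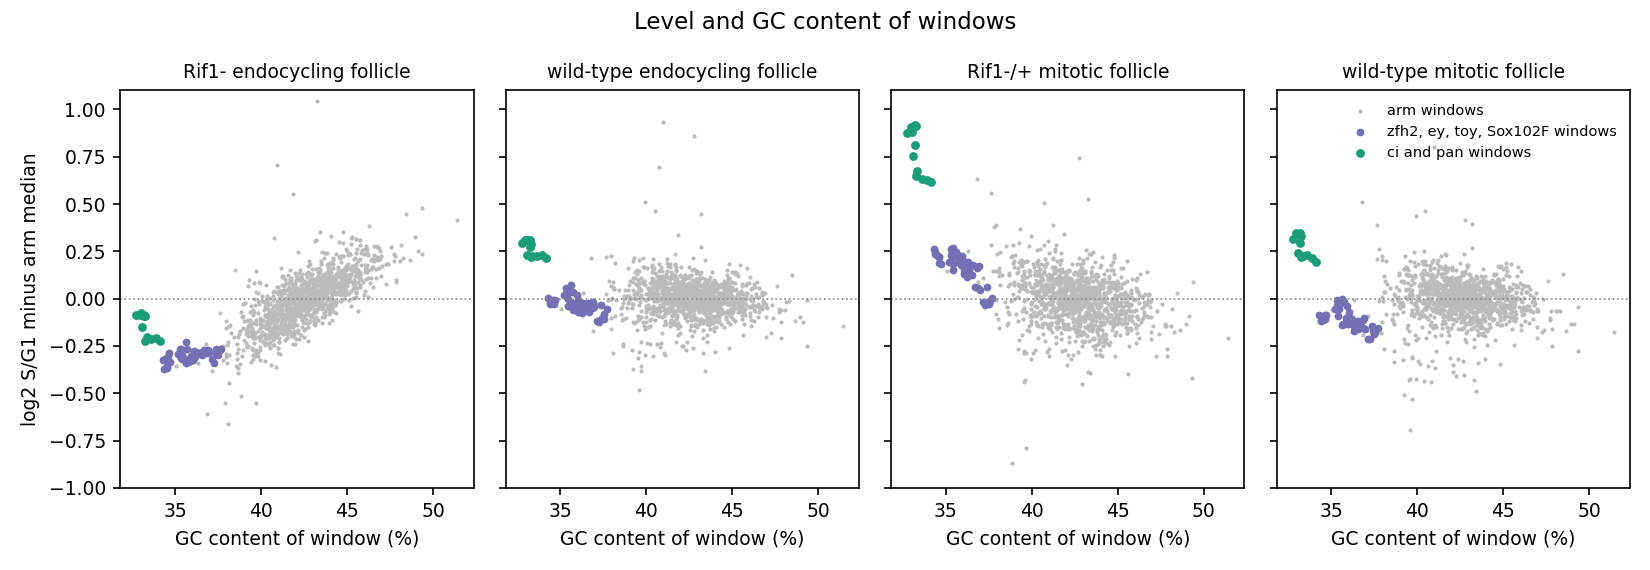
Level against GC content of windows in 4 follicle cell conditions: the vertical axis is log2 S/G1 minus the arm median, the horizontal axis is GC content in percent, grey points are every 10th arm window (1144, with 1 to 3 per panel beyond the axis) and coloured points are the 12 windows of ci and pan and the 50 other member windows. In Rif1- endocycling cells the arm windows fall toward low GC content, where the members lie, and in all 4 panels ci and pan stand above the other members.

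For differences between conditions, each pair of conditions was quantile normalized to each other and windows whose log2 change was over 0.1 in size were called higher or lower, a rule of size and not a test. Arm-centred differences, which are the plain difference of 2 levels, are given where the scaling matters. Comparisons in mitotic follicle cells share the wild-type condition, and so do those in wing discs, so they are not independent of each other.

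Between tissues, ci and pan replicated earlier in follicle cells than in wing discs, and ey, Sox102F and zfh2 later. In wild-type mitotic follicle cells against wild-type wing discs, 6 of the 62 member windows were higher, where 17.1% of all windows were, and 37 were lower, where 18.9% were. All 6 higher windows belonged to ci and pan, and all 37 lower windows to the other genes. The normalized change was 0.13 for ci and 0.10 for pan, and -0.11 for zfh2, -0.18 for ey and -0.14 for Sox102F, whose 13 windows were all lower, as were the 13 of ey. toy, at -0.08, did not pass the threshold. By arm-centred difference ci was 0.27 and pan 0.22 higher, and all 12 of their windows passed, while zfh2 fell just short of the threshold, at -0.0999, and at -0.094 with the GC trend removed. The members were therefore split in direction. The other chromosome 4 windows had 14 higher and 9 lower of 73. All 14 also passed 0.2 and lay at the distal end, where wild-type mitotic follicle values rose to 2.88 (see Other observations).

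Between cell cycles of the same tissue no member passed the threshold after pairwise quantile normalization. In wild-type endocycling against wild-type mitotic follicle cells, 0 of the 62 windows were higher and 0 lower, where 1.44% and 1.84% of all windows were. By the paper's account the mitotic S phase fraction may also hold follicle cells in their first endocycle, so a difference between the cell cycles could be diluted. The changes were 0.00 for ci, 0.01 for pan, 0.07 for zfh2, 0.09 for ey, 0.07 for toy and 0.05 for Sox102F. The 4 distal genes were thus all slightly higher in endocycling cells. By arm-centred difference ey passed the threshold, at 0.11, as did 13 of the 50 windows of these genes. The shift was shared with the rest of chromosome 4. The median normalized change was 0.066 for member windows and 0.075 for the other 73, against quartiles of -0.023 and 0.025 for all windows.

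In mitotic follicle cells ci and pan were later in Rif1- than in wild type, and no other member passed the threshold both after quantile normalization and by arm-centred difference. In Rif1- against wild-type mitotic follicle cells, 0 of the 62 member windows were higher, where 13.4% of all windows were, and 33 were lower, where 15.0% were. The 33 were made up of all 12 windows of ci and pan and 21 of the other 50. Of the 73 chromosome 4 windows without a member 21 were lower, 14 of them by over 0.2, at the distal end. The change was -0.14 for ci and -0.13 for pan, and by arm-centred difference -0.15 and -0.14. For zfh2, ey and Sox102F it was -0.13, -0.12 and -0.14 after quantile normalization, but 0.00, 0.06 and 0.05 by arm-centred difference, where none of the 50 windows was lower. 7 member windows counted as lower had a deposited ratio that was higher in Rif1- than in wild type. toy, at -0.07, did not pass the threshold. With all 9 conditions normalized together ci fell short of it as well, at -0.096, with pan at -0.10 and 7 of the 12 windows of ci and pan lower.

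ci and pan were also later in Rif1PP1 than in wild-type mitotic follicle cells, and the other 4 genes did not pass the threshold. Of the 62 member windows, 5 were higher, where 15.8% of all windows were, and 12 (19.4%) were lower, where 17.8% were. The lower share of the members as a set was thus near that of all windows. Of the other chromosome 4 windows 19 of 71 were lower, 13 of them by over 0.2, at the distal end. The 12 lower windows were exactly those of ci and pan, at -0.12 for ci and -0.13 for pan, and -0.11 and -0.12 by arm-centred difference. The 5 higher windows belonged to zfh2, ey and Sox102F, whose changes were 0.03, 0.05 and 0.06, and toy was at 0.06. With all 9 conditions normalized together ci fell short of the threshold, at -0.097, with pan at -0.11 and 8 of their 12 windows lower. With the trend of each profile with GC content removed, 12 windows of ci and pan and 6 of the other genes were lower and none was higher.

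In Rif1-/+ mitotic follicle cells all 6 genes had higher values than in wild type. All 62 member windows were higher, where 15.5% of all windows were, and 0 were lower, where 17.3% were. The change was 0.62 for ci, 0.47 for pan, 0.26 for zfh2, 0.25 for ey, 0.27 for toy and 0.20 for Sox102F. Of the other chromosome 4 windows 57 of 71 were higher, so the change covered most of the chromosome. With the GC trend removed, 52 of the 62 member windows passed, 12 of them in ci and pan, whose mean change was then 0.37, against 0.15 for the other member windows, and Sox102F, at 0.088, did not pass. The heterozygote thus had the highest values at ci and pan of all conditions, while the null mutant had lower values there than wild type. Whether the higher values in Rif1-/+ reflect earlier replication or a higher copy number of chromosome 4 was not tested.

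In endocycling follicle cells all 6 genes were later in Rif1- than in wild type. None of the 62 member windows was higher, where 24.4% of all windows were, and all 62 were lower, where 26.5% were. The change was -0.42 for ci, -0.45 for pan, -0.61 for zfh2, -0.51 for ey, -0.63 for toy and -0.49 for Sox102F, and by arm-centred difference -0.38, -0.41, -0.29, -0.24, -0.32 and -0.23 in that order. The genes with the larger change therefore differed between the scalings. Of the other 73 windows 71 were lower. With the GC trend removed, 11 member windows remained lower, all of them in ci and pan, at -0.12 for ci and -0.14 for pan, while zfh2, ey, toy and Sox102F were at -0.02, 0.03, -0.05 and 0.04. ci and pan thus kept negative values in Rif1- against wild type under every scaling tried in both kinds of follicle cell, although the GC content of their windows lies below the range in which the trend was measured.

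In wing discs few member windows differed between genotypes after pairwise normalization. In Rif1- against wild-type wing discs, 0 of the 62 windows were higher, where 2.79% of all windows were, and 3 were lower, where 4.60% were, all 3 of them in Sox102F. The changes of the genes ran from -0.04 for Sox102F to 0.07 for zfh2, with 0.01 for ci and 0.01 for pan. In Rif1PP1 against wild-type wing discs, 1 of the 62 windows was higher, a window of toy, where 5.93% of all windows were, and 0 were lower, where 6.62% were. The changes ran from -0.01 for ci to 0.07 for zfh2, while 28 of the other 73 chromosome 4 windows were higher. No member passed the threshold in wing discs of either mutant under this scaling. With all 9 conditions normalized together, zfh2 passed in Rif1- (0.10) and in Rif1PP1 (0.15) and toy in Rif1PP1 (0.11), and 9 member windows were higher in Rif1- and 22 in Rif1PP1.

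**Figure D3:**
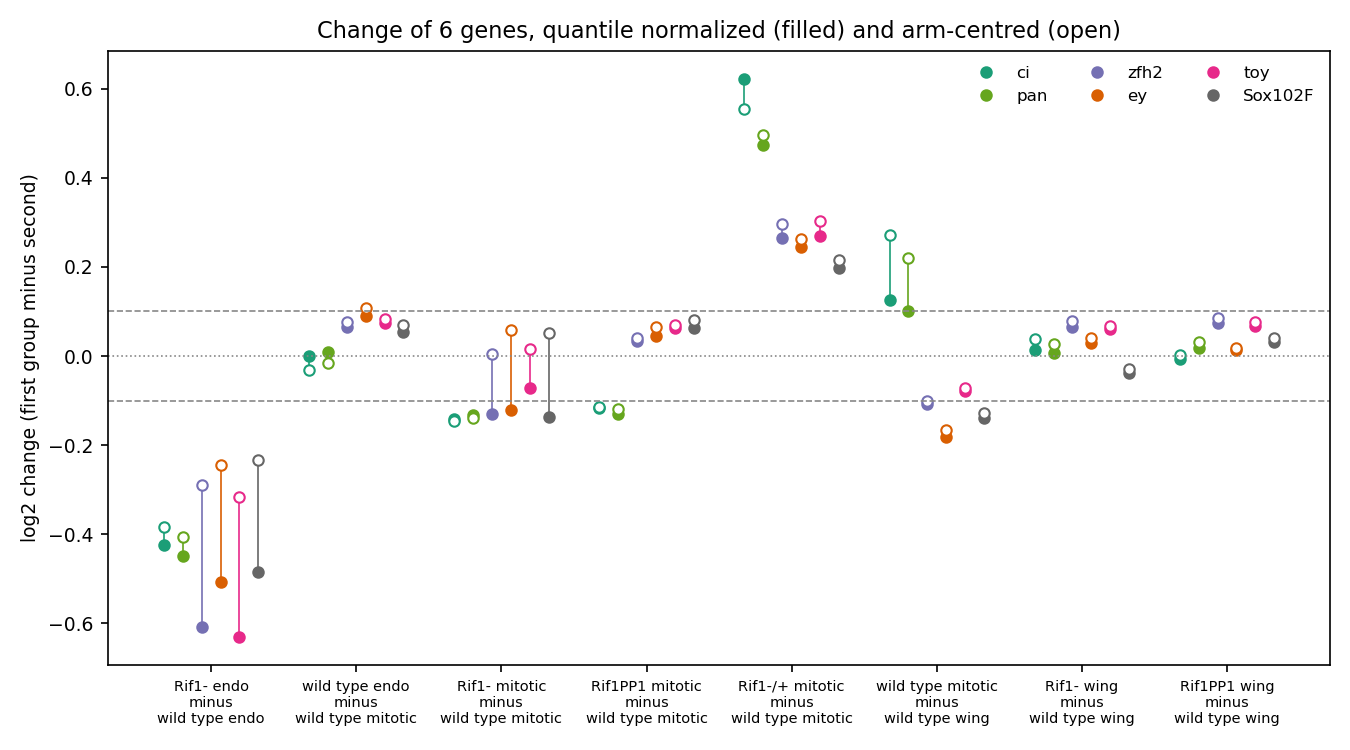
Change of each gene in 8 comparisons: the vertical axis is the log2 change of the group named above over the group named below it, filled points are means after pairwise quantile normalization, open points are arm-centred differences and dashed lines mark changes of 0.1 in size. ci and pan are below -0.1 in Rif1- and Rif1PP1 mitotic and Rif1- endocycling follicle cells and above 0.4 in Rif1-/+, and filled and open points part in Rif1- cells for zfh2, ey, toy and Sox102F.

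Other chromosome 4 genes near ci had its levels. PlexB, a semaphorin receptor, and RpS3A, a ribosomal protein gene, lie beside ci and share its windows, and in wild-type mitotic follicle cells they were at 0.34 and 0.32, close to the 0.33 of ci. Of 6 other chromosome 4 regulators (sv, onecut, fd102C, lgs, pho and Mitf) none was above 0.1 in that condition, with levels from -0.12 for onecut to 0.09 for Mitf. All 6 of them were higher in Rif1-/+ than in wild-type mitotic follicle cells, from 0.17 for Mitf to 0.30 for pho, and all 6 were lower in Rif1- than in wild-type endocycling cells. The windows of Mitf run into the distal end (see Other observations), up to 0.62 in wild-type mitotic follicle cells. Its level and changes are therefore not read as timing alone. Of 6 signalling genes (Actbeta, myo, Eph, Ephrin, PlexA and PlexB) only PlexB was above 0.1 in wild-type mitotic follicle cells and the other 5 were below -0.1, and of 6 general genes (RpS3A, ATPsynbeta, Rad23, eIF4G1, Crk and Thd1) only RpS3A was above 0.1 and 2 were below -0.1.

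Partner genes of the members on other chromosomes mostly lay nearer the arm median. In wild-type mitotic follicle cells the 6 Hedgehog pathway genes hh, ptc, smo, fu, cos and Su(fu) lay between -0.12 (smo) and 0.13 (fu), below ci, their effector. The 6 Wnt pathway genes wg, arm, arr, fz2, dsh and Axn lay between -0.16 (arm, the beta-catenin that binds Pan) and 0.06 (fz2, a receptor), below pan. ey, at -0.16, lay below all 7 retinal determination genes (so, eya, dac, Optix, eyg, toe and tsh), of which Optix was lowest, at -0.07, and only dac was above 0.1, at 0.20. In Rif1-/+ against wild-type mitotic follicle cells, all 6 members were higher by over 0.1, while none of these 19 genes was and 1 was lower (fu, -0.16).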

How the data were processed

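The authors sorted nuclei, aligned reads to dm6 (Bowtie2 2.3.2, and SAMtools 1.9 for a mapping quality filter), tallied them per 100-kb window (10-kb slide), scaled for depth and averaged the S/G1 ratio of replicates. Deposited values are on a log2 scale, with 1 mean of 2 S phase samples for each condition and window, before quantile normalization. Order of averaging and logarithm is not given in the sources used here. Depth per sample is unknown, and no interval or p-value was computed. The limma filter of the study needs replicates and was not applied.

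Windows whose ends equal the scaffold lengths of the RefSeq Release 6 assembly were matched to gene positions of that annotation. Levels, pairwise quantile normalization, changes over 0.1 and GC trends (50 bins of arm windows) were computed with Python 3.11.15, numpy 2.4.6 and pandas 2.3.3, and plots with matplotlib 3.10.9. Pericentric heterochromatin was taken from 22 Mb on 2L, to 5.7 Mb on 2R, from 23 Mb on 3L, to 4.2 Mb on 3R and from 22 Mb on X. Named genes were the 6 members, their 2 most similar genes outside chromosome 4 at least 1 Mb apart, and from fixed lists those highest or lowest or past 0.1. The members and lists were chosen with earlier results of these data known. Calling of windows was checked only on simulated shifts well above the threshold, so the check does not bear on changes near 0.1. Alternatives were arm-median centring, joint normalization of 9 conditions, a threshold of 0.2, the central window of a gene and removal of the GC trend. Thd1 was found under the symbol Tdg. RNA sequencing was not analysed here.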

Additional observations from a re-analysis of the deposited data

How the results depend on the processing

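No paired analysis was possible because the deposited columns hold 1 mean per condition, and for the same reason no replicate could be left out. Of 16 counts of changed member windows, 10 stayed within 1.5 times (equality included) with arm-median centring, 12 with joint normalization, 9 with a threshold of 0.2 and 10 with the GC trend removed. A count of 0 cannot rise at a stricter threshold, so the counts of 0 among the 9 at 0.2 stayed by rule. The nonzero counts that stayed at 0.2 were those lower in Rif1- endocycling cells (62) and higher in Rif1-/+ mitotic cells (50). The cause was not tested where a count moved further. With arm-median centring, Rif1- wing discs had 3 higher and 1 lower, Rif1PP1 wing discs 7 higher, Rif1- mitotic follicle cells 12 lower, wild-type mitotic follicle cells against wing discs 12 higher, and wild-type endocycling against mitotic follicle cells 13 higher. With joint normalization, Rif1- wing discs had 9 higher, Rif1PP1 wing discs 22 higher, Rif1PP1 mitotic follicle cells 0 higher, and wild-type mitotic follicle cells against wing discs 10 higher. At a threshold of 0.2, Rif1- wing discs had 0 lower, Rif1PP1 wing discs 0 higher, Rif1- mitotic follicle cells 8 lower, Rif1PP1 mitotic follicle cells 0 higher and 0 lower, and wild-type mitotic follicle cells against wing discs 0 higher and 6 lower. With the GC trend removed, Rif1PP1 wing discs had 0 higher, Rif1- mitotic follicle cells 12 lower, Rif1- endocycling cells 11 lower, Rif1PP1 mitotic follicle cells 0 higher, wild-type mitotic follicle cells against wing discs 12 higher, and wild-type endocycling against mitotic follicle cells 11 higher.

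Among values past 0.1 in size, directions turned in Rif1- mitotic follicle cells for zfh2 (0.0037), ey (0.058) and Sox102F (0.052) with centring and for ey (0.044) and Sox102F (0.037) with the GC trend removed, and in Rif1- endocycling cells for ey (0.025) and Sox102F (0.036) with the GC trend removed. That removal also turned the level of pan in Rif1- endocycling cells to 0.13 and that of ey in Rif1-/+ cells to -0.0092. Of 24 changes and 34 levels within 0.1, 10 changes and 5 levels turned with the GC trend removed, 3 changes with centring, 1 with the central window and 0 with joint normalization. These include toy in Rif1- mitotic cells (0.015 with centring) and, with the GC trend removed, zfh2 (-0.090), ey (-0.065), toy (-0.061) and Sox102F (-0.051) in Rif1PP1 mitotic cells and the levels of ci in Rif1- endocycling cells (0.19) and Sox102F in Rif1-/+ cells (-0.029). All member windows fall in its lowest bin, so it moves them by 1 constant per condition and leaves differences among members as they are. The central window of a gene turned no direction of a value past 0.1 among the 54 levels and 48 changes.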

Other observations

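Beyond toy, the distal end of chromosome 4 held the highest values of the chromosome in wild-type follicle cells. The window from position 1320001 to the scaffold end was at 2.88 in wild-type mitotic follicle cells. The highest distal value was 0.06 in wild-type wing discs and 0.55 in Rif1- mitotic follicle cells. A doubling of copy number gives 1 on the log2 scale, so a value of 2.88 is not read as replication timing here. 10 windows there are cut short by the end of the scaffold. Of these, 2 are at exactly 0 in some conditions. In the deposited data 4 values of chromosome 4, none of them of a member, are not finite. No member window reaches this end.

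A search for similar genes covered 7759 protein-coding genes outside chromosome 4, leaving out symbols that start with CG. It compared the 9 arm-centred values at the central window of each gene. Of these genes, RpL15, a ribosomal protein gene in the pericentric part of 3L, and Lamp1 on 2L were most like ci and pan. The root mean square difference of RpL15 was 0.14 from ci and 0.13 from pan, and that of Lamp1 was 0.15 from both. Chromosome 4 genes that share windows with ci, such as PlexB and RpS3A, were not in the search. RpL15 was at 0.65 in Rif1-/+ and 0.38 in wild-type mitotic follicle cells and at -0.03 in wild-type wing discs, and Lamp1 was at 0.68, 0.62 and -0.05 in the same conditions. The genes most like the other members were closer to them: tplus3a (0.05) for zfh2, a gene on 2R (0.05) and CYLD (0.06) for ey, cta (0.04) for toy and Snx17 (0.04) for Sox102F. Likeness over 9 means is a description, and the genes differ in GC content and region.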
